A study of Mus musculus with 44 samples.

Results

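Tbr1, Bcl11b, Fezf2, Cux1, Cux2, Neurod2, Neurod6 and Emx1 are transcription factors that mark or specify the projection neurons of the cerebral cortex. Their rows were taken by gene name from the count table of primary mouse cortical neurons, 8 of the 54532 genes listed there. All 8 were among the 17837 genes that passed the filter on low counts. The neurons were grown in Neurobasal medium with B27, and peptide, with or without the synthetic glucocorticoid dexamethasone (DEX), was given for 4 hours before polyadenylated RNA was sequenced. There were 7 groups of 4 libraries. In 5 of them the interfering peptide was given with DEX at 1, 3, 10, 30 or 100 µM, in the sixth the control peptide at 100 µM with DEX, and in the seventh the control peptide at 100 µM without DEX. Every group therefore received a peptide. No group had the interfering peptide without DEX, and the lower doses had no control peptide at the same dose. The series also holds 16 libraries of L929, a mouse fibroblast line from connective tissue, used here only for levels. There were 4 each labelled full-length (Isoform 2), delta-IDR combined domain (Isoform 2), delta-coiled-coil and -LCDs (Isoform 2), and control. The L929 libraries are also listed with a treatment of 4 hours, and their titles do not name the agent. The sources used here give neither the DEX concentration, nor the age and strain of the mice, nor the peptide sequences. Separate cultures or animals are not stated for the libraries of a group, so the p-values speak of the spread between libraries, which may be technical.

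Projection neurons are the excitatory, long-range neurons of the cortex, and their classes are set by transcription factors that partly repress each other. Fezf2 and its downstream factor Bcl11b direct subcortically projecting neurons of the deep layers, Tbr1 directs corticothalamic neurons and the early-born subplate, and Cux1 and Cux2 mark the upper layers, where neurons project within the cortex. Neurod2 and Neurod6 are basic helix-loop-helix (bHLH) factors of nearly all excitatory cortical neurons after their last division. Emx1, a homeobox gene, marks the dorsal telencephalic lineage from the progenitor onwards. Several are not exclusive to these cells: Bcl11b is also a gene of striatal neurons and interneurons, and Cux1 is used by many cell types.

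Neuron libraries held 13685236 to 17083701 counts. The libraries of a group fell into pairs, 1 with 3 and 2 with 4. Over all tested genes the deviations from the group mean correlated at -0.27 to -0.08 within these 14 pairs, against -0.46 to -0.34 in the other 28 combinations. The labels list 4 samples per group, and all 4 were kept. The paired libraries differed by 1.73 to 3.02 times the variance that counting gives, a spread that 2 preparations of the same RNA can also have, so it does not show whether they were separate cultures. Each count of called factors is given a second time with libraries 1 and 3 summed and libraries 2 and 4 summed, which leaves 2 sums per group. The paired libraries carried no link across groups: same-numbered libraries of different groups correlated at -0.09 to 0.09. Values given for libraries 1 and 3 alone or 2 and 4 alone therefore match pairs across groups by number only, which is arbitrary. A p-value from such a set rests on 2 similar libraries per group.

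Markers of neurons were abundant, and cortical ones stood beside those of other regions. The other projection neuron factors (22 genes) summed to group means of 4775 to 5381 counts per 1000000 counts (CPM, scaled by TMM), the thalamic list (11 genes) to 204 to 401 CPM, with Zic1 at a mean of 151 CPM, and the striatal list (12 genes) to 160 to 186 CPM. Pan-neuronal genes (6 listed, among them Map2 and Snap25) summed to group means of 2926 to 3324 CPM. The GABAergic interneuron list (13 genes) summed to 928 to 1100 CPM, the progenitor list (8 genes) to 2039 to 2282 CPM and the astrocyte list (9 genes) to 457 to 489 CPM. The astrocyte markers ran from means of 139 CPM for Slc1a3, 104 CPM for Slc1a2 and 103 CPM for Aldoc down to S100b and Gjb6 under 1 CPM. Oligodendrocyte lineage (8 genes, 74.9 to 93.2 CPM) and microglial markers (6 genes, 22.8 to 26.5 CPM) were lower. Markers of dividing and non-excitatory cells and of thalamus and striatum were thus present beside those of projection neurons. In such bulk samples fewer cells of a type cannot be told apart from less RNA per cell.

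All 8 factors were detected in every one of the 28 libraries. Levels between genes are compared as CPM per kilobase of gene length given in the table. Neurod6, on chromosome 6 from 55677822 to 55681263 (minus strand, mm10), was the highest, with a mean of 218 CPM per kilobase and a range of 178 to 269. That placed it at the 99.4th percentile of tested protein-coding genes. Its paralog Neurod2, on chromosome 11 from 98325415 to 98329648 (minus strand), averaged 108 CPM per kilobase. Bcl11b, on chromosome 12 from 107910403 to 108003602 (minus strand), averaged 50.7, and Tbr1, on chromosome 2 from 61802930 to 61814114 (plus strand), averaged 46.2. Fezf2, on chromosome 14 from 12342094 to 12348189 (minus strand), averaged 36.5, and Emx1, on chromosome 6 from 85187438 to 85204462 (plus strand), averaged 26.8 CPM per kilobase. The upper-layer genes were the lowest of the 8 per length. Cux1, on chromosome 5 from 136248135 to 136567490 (minus strand), averaged 10.9, and Cux2, also on chromosome 5, from 121856366 to 122050102 (minus strand), averaged 8.97 CPM per kilobase. Both Cux genes overlap low transcripts, including the antisense genes Gm16599 (Cux1) at 0.22 CPM and Gm3970 and Gm15637 (Cux2) at 0.09 and 0.12 CPM. The strand setting of the counting is not given, so their reads cannot be told apart from those of the Cux genes.

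In L929 fibroblasts the set was nearly silent except for Cux1. Neurod6 and Emx1 had 0 counts in all 16 libraries, Neurod2 had 1 count in all, Fezf2 6 and Tbr1 12. Bcl11b ranged from 0.11 to 1.30 CPM and Cux2 from 1.54 to 4.13 CPM. Cux1 ranged from 156 to 201 CPM in L929, with a mean of 8.88 CPM per kilobase. Its group means were 188 ± 10.9 CPM with the full-length label, 169 ± 9.27 CPM with delta-IDR and 194 ± 5.42 CPM with delta-coiled-coil and -LCDs, against 160 ± 4.04 CPM in the L929 control (SD, n = 4 each). Bcl11b and Cux2 were higher by value in that control, at 1.03 and 3.59 CPM, than in the other L929 groups, at 0.24 to 0.43 and 1.88 to 2.07 CPM. Differences between the L929 groups were not tested here. The neuron and L929 tables were normalized separately, so these levels are set side by side without a test.

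Across the 7 neuron groups the means of each factor differed by 1.11-fold to 1.48-fold. The highest group mean exceeded the lowest by 1.48-fold for Emx1, 1.33-fold for Neurod6, 1.31-fold for Fezf2, 1.19-fold for Cux2, 1.18-fold for Tbr1, 1.14-fold for Bcl11b, 1.13-fold for Neurod2 and 1.11-fold for Cux1. The median of that ratio over 5016 protein-coding genes of at least 50 CPM was 1.15-fold. Emx1, Neurod6, Fezf2, Cux2 and Tbr1 lay above that median, and Bcl11b, Neurod2 and Cux1 below it. In an edgeR quasi-likelihood test for any difference among the 7 groups, 7 of the 8 passed an adjusted p of 0.05, Bcl11b missing it at 0.0718, where 45.2% of all tested genes passed. Cux2 was 1 of 8 that passed with libraries summed in pairs (adjusted p = 0.0470), against 16.8% of all genes. Leaving out 1 library number in every group ended the call of Cux1 for each number, of Neurod2 for numbers 1 and 3, of Emx1 for number 2 and of Fezf2 for number 3 (adjusted p of 0.0952 to 0.218, edgeR), while Tbr1, Cux2 and Neurod6 passed in 4 of 4. In those smaller fits 31.0% to 37.0% of all genes passed. When each gene's group means were put in order, neighbouring groups overlapped in every gene, except that Neurod6 at 100 µM (525 to 578 CPM) lay above 10 µM (436 to 518 CPM).

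**Figure D1:**
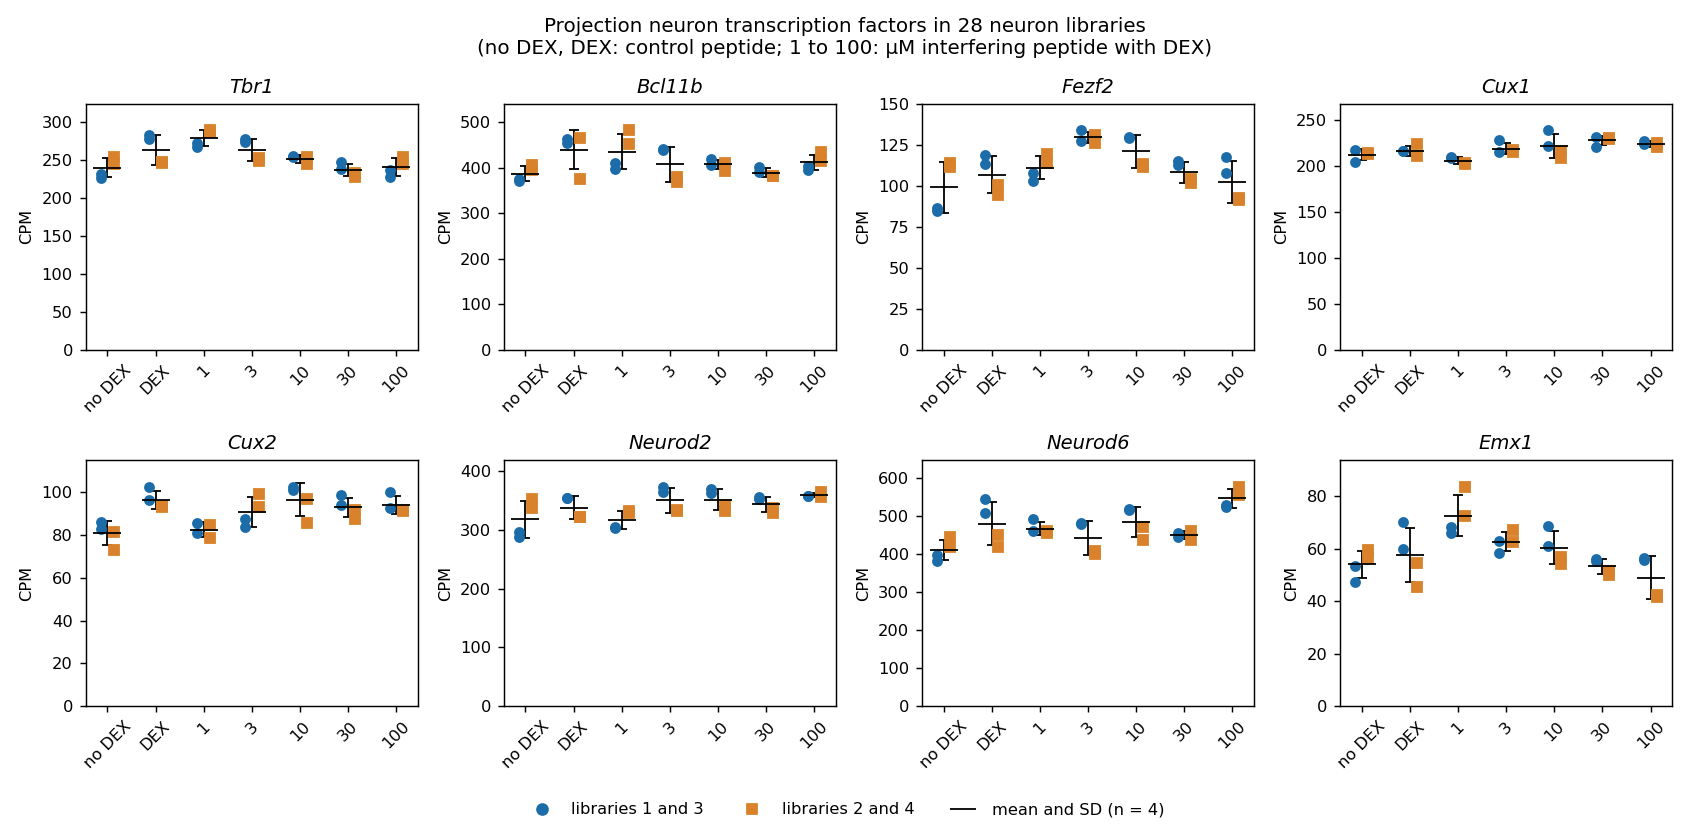
CPM of the 8 transcription factors (1 panel each, vertical axis from 0) in 7 neuron groups on the horizontal axis, where no DEX and DEX are control peptide groups and 1 to 100 are µM of interfering peptide with DEX. Circles are libraries 1 and 3, squares libraries 2 and 4, and bars the mean and SD of 4 libraries. The 4 Neurod6 values at 100 µM sit between 525 and 578 CPM, above all 4 without DEX, and the Emx1 means fall along the 5 doses, to 48.9 CPM at 100 µM.

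DEX was compared with no DEX in cells that had the control peptide. All 8 factors were higher with DEX by value, with a median log2 change of 0.12 against -0.01 over all tested genes. Cux2, the upper-layer homeobox gene, and Neurod6 passed the test and rose, 2 of 8, where 10.8% of all genes passed and 5.44% rose. Cux2 had 102, 93.4, 96.2 and 93.1 CPM with DEX, against 86.1, 73.0, 82.7 and 81.3 CPM without. The lowest Cux2 library with DEX was above the highest without. Cux2 was 1 of 8 factors whose groups did not overlap, which held for 16.1% of all genes. The log2 change of Cux2 was 0.25 ± 0.06 (standard error, adjusted p = 0.00257, edgeR). It was 0.23 in libraries 1 and 3 alone and 0.27 in libraries 2 and 4 alone.

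Neurod6 had 508, 420, 544 and 451 CPM with DEX, against 382, 445, 398 and 419 CPM without. Libraries 1 and 3 with DEX stood above all others, while libraries 2 and 4 with DEX lay inside the range without DEX or just above it. Its log2 change was 0.23 ± 0.07 (adjusted p = 0.0405, edgeR). The change was 0.43 in libraries 1 and 3 alone and 0.01 in libraries 2 and 4 alone. Leaving out library 1, 3 or 4 without DEX, or library 1 or 3 with DEX, ended the call (adjusted p of 0.0631 to 0.134). With libraries summed in pairs, edgeR called 0 of 8 factors (1.72% of all genes), with Cux2 at an adjusted p of 0.0790 and Neurod6 at 0.239. At an unadjusted p under 0.05, that fit gave 3 of 8, against 17.1% of all genes. DESeq2, run on the 4 libraries, called 3, against 11.6%.

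For 5 of the remaining 6 factors the DEX difference was unlike by value in libraries 1 and 3 and in libraries 2 and 4, while Cux1 was at 0.03 in each. This matching by number is arbitrary, so it does not show that an effect of DEX varied between sets. Standard errors within a set were small, such as 0.06 for Fezf2, against 0.10 with all 4 libraries. In libraries 1 and 3 alone, 7 of 8 passed, against 14.7% of all genes, with Fezf2 at 0.43 ± 0.06, Emx1 at 0.36 ± 0.07, Bcl11b at 0.29 ± 0.04, Tbr1 at 0.28 ± 0.04 and Neurod2 at 0.27 ± 0.04 (edgeR). In libraries 2 and 4 alone Fezf2 was at -0.21 ± 0.06 (adjusted p = 0.00936, edgeR), and Tbr1, Neurod2 and Emx1 were at -0.02, -0.10 and -0.21 without passing. Fezf2 had 119, 101, 113 and 94.4 CPM with DEX, against 84.5, 114, 86.8 and 111 CPM without, in library order 1 to 4. Its high libraries were 1 and 3 with DEX and 2 and 4 without. Bcl11b, at 454, 376, 463 and 465 CPM with DEX, against 371, 407, 376 and 394 CPM without, just missed the test (0.18 ± 0.06, adjusted p = 0.0533, edgeR), and DESeq2 called it (adjusted p = 0.0360). Library 2 with DEX, the low one, decided this. Without it the change was 0.25 and the adjusted p 0.00273.

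Of 22 other projection neuron factors, 4 rose with DEX and none fell. Pou3f3 (log2 change 0.16 ± 0.04) and Pou3f1 (0.30 ± 0.08), POU factors of upper-layer and callosal neurons, were among those that rose. Summed in pairs, the libraries gave 0 of 22 in edgeR, with 4 at an unadjusted p under 0.05. For all genes these shares were 1.72% and 17.1%. With the 4 libraries of a group kept apart, 10.8% of all genes passed and 5.44% rose. Markers of other cells moved beside them. Of 13 GABAergic interneuron genes 6 rose. The list summed to 1007 to 1181 CPM with DEX and to 891 to 999 CPM without, with no marker at 0. Of 11 thalamic genes 4 fell (3 interneuron and 0 thalamic genes passed with libraries summed in pairs, and 5 and 3 had an unadjusted p under 0.05), and that list summed to 201 to 314 CPM with DEX and to 255 to 458 CPM without, Zic1 being its most abundant member and Irx1, Irx3 and Nkx2-2 lying under 1 CPM on average. The part of these cells in the result was not tested.

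**Figure D2:**
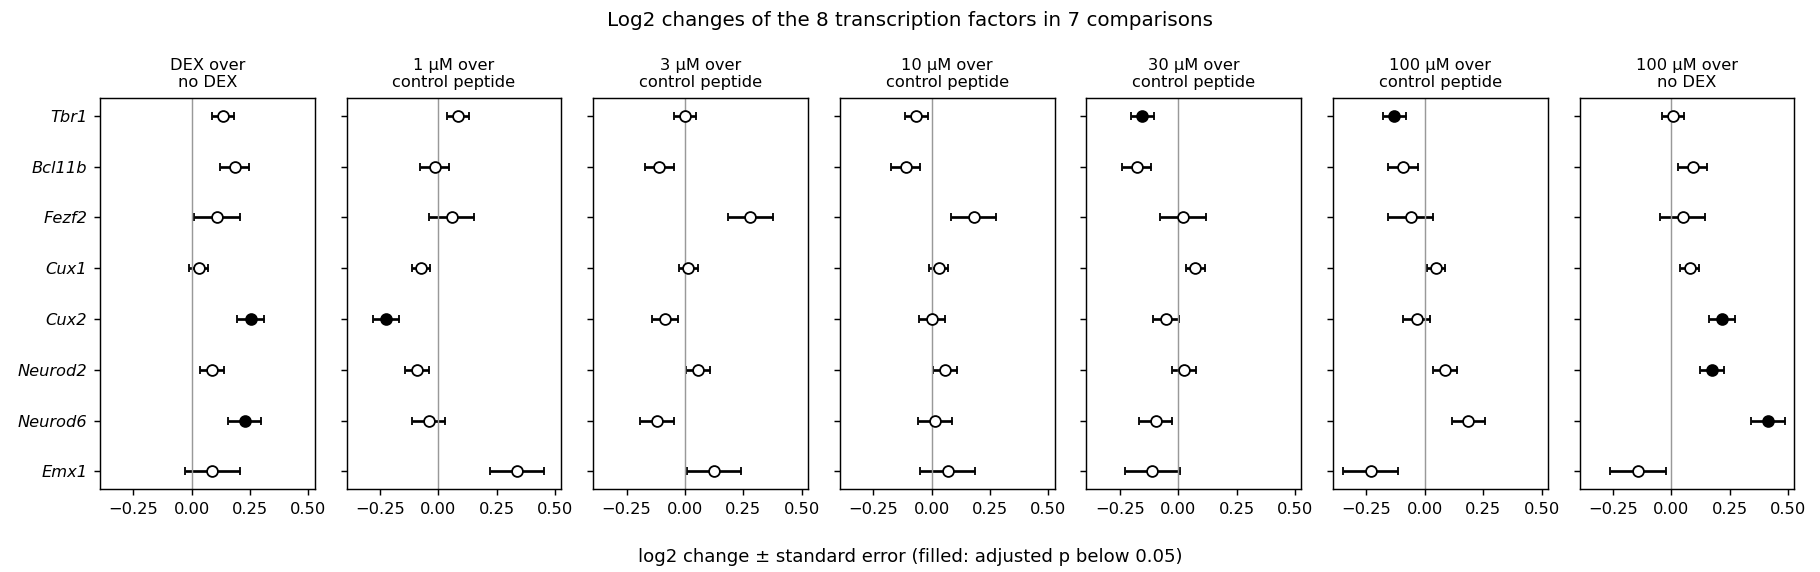
Log2 change and standard error (horizontal axis) of the 8 transcription factors (rows) in 7 comparisons of 4 with 4 libraries, filled where the adjusted p was below 0.05. All 8 points lie right of 0 for DEX over no DEX, and Neurod6 at 100 µM over no DEX (0.41) is the farthest point on the right.

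The interfering peptide, with DEX, was compared with the control peptide, with DEX, at each dose. These 5 comparisons share 1 control group, so their values are given side by side. The same 4 libraries were the DEX group of the comparison with no DEX. A rise with DEX and a fall with the interfering peptide are therefore not independent results. At 1 µM Cux2 fell, 1 of 8, where 2.29% of all genes passed and 0.891% fell. It had 85.5, 84.6, 81.0 and 78.3 CPM at 1 µM, against the control peptide values of 93.1 to 102 CPM given above, and the groups did not overlap. The Cux2 mean was 82.4 CPM at 1 µM, 96.2 CPM with control peptide and DEX, and 80.8 CPM with control peptide without DEX. The log2 change was -0.22 ± 0.06 (adjusted p = 0.0189, edgeR), and it was -0.25 in libraries 1 and 3 and -0.20 in libraries 2 and 4. Leaving out library 1 of the control peptide, or library 3 or 4 at 1 µM, ended the call (adjusted p of 0.0542 to 0.101). Cux1, its paralog, did not overlap either, at 202 to 210 CPM with 1 µM, against 211 to 224 CPM with control peptide, and missed the test (-0.07 ± 0.04, adjusted p = 0.393, edgeR). The 2 genes whose groups did not overlap compare with 8.40% of all genes. Summed in pairs, the libraries gave 0 of 8 in edgeR (0.454% of all genes) and Cux2 had an adjusted p of 0.314. That fit gave 1 of 8 at an unadjusted p under 0.05 (8.41% of all genes), and DESeq2 on the 4 libraries called 1 (4.08%).

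Emx1 differed most by value at 1 µM. It had 68.3, 72.4, 65.8 and 83.6 CPM at 1 µM, against 70.0, 54.4, 60.1 and 45.5 CPM with control peptide. Library 1 of the control peptide lay within the range at 1 µM, and the log2 change of 0.34 ± 0.12 missed the test (adjusted p = 0.149, edgeR). Beside these values, 6 of 13 interneuron genes fell at 1 µM and the thalamic list summed to 256 to 553 CPM, against 201 to 314 CPM with control peptide. With libraries summed in pairs 0 genes of either list passed, and 9 interneuron and 2 thalamic genes had an unadjusted p under 0.05 (edgeR). Of all genes 2.29% passed at 1 µM and 0.891% fell. Summed in pairs, 0.454% of all genes passed and 8.41% had an unadjusted p under 0.05. The thalamic sum at 1 µM averaged 538 CPM in libraries 1 and 3 and 264 CPM in libraries 2 and 4, against 203 and 314 CPM with control peptide. The part of these lists was not tested.

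At 3 µM and 10 µM, edgeR called 0 of 8 factors, where 5.25% and 5.38% of all genes passed. At an unadjusted p under 0.05 there was 1 at 3 µM and 0 at 10 µM, against 19.3% and 20.1% of all genes. At 3 µM it was Fezf2, with 134, 127, 127 and 131 CPM, against 119, 101, 113 and 94.4 CPM with control peptide. Every 3 µM library was above every control library, with a log2 change of 0.28 ± 0.10 (adjusted p = 0.0948, edgeR). Of all genes 9.34% had groups that did not overlap, in either direction. DESeq2 called Fezf2 at 3 µM (adjusted p = 0.0255) and no factor at 10 µM, where it called 6.48% and 6.73% of all genes. With libraries summed in pairs, edgeR called 0 of 8 at 3 µM and at 10 µM (0.533% and 0.600% of all genes), with 0 at an unadjusted p under 0.05 (12% and 12.2% of all genes). Fezf2 at 3 µM had an adjusted p of 0.510 in that fit.

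At 30 and 100 µM the factor that fell was Tbr1, 1 of 8 at each dose, where 15.9% of all genes passed and 7.26% fell at 30 µM, and 23.4% passed and 11.5% fell at 100 µM. Tbr1 had 247, 233, 239 and 228 CPM at 30 µM and 227, 254, 236 and 245 CPM at 100 µM, against 277, 247, 282 and 246 CPM with control peptide. The control peptide libraries 1 and 3 were the high ones, and libraries 2 and 4 overlapped both doses. The log2 change was -0.15 ± 0.05 at 30 µM (adjusted p = 0.0216, edgeR) and -0.13 ± 0.05 at 100 µM (adjusted p = 0.0406, edgeR). At 30 µM it was -0.21 in libraries 1 and 3 and -0.10 in libraries 2 and 4. At 100 µM these values were -0.27 and 0.0175, so that the direction turned. Leaving out control library 1 or 3, or library 2 or 4 at 30 µM, ended the 30 µM call (adjusted p of 0.0539 to 0.105). Leaving out control library 1 or 3, or library 1, 3 or 4 at 100 µM, ended the 100 µM call (adjusted p of 0.0547 to 0.175). With libraries summed in pairs, edgeR called 0 of 8 at either dose (4.00% and 10.2% of all genes), and Tbr1 had adjusted p of 0.213 and 0.246. In that fit 2 of 8 had an unadjusted p under 0.05 at 30 µM and 0 at 100 µM, against 21% and 26.5% of all genes. On the 4 libraries DESeq2 called 2 factors at 30 µM, Tbr1 and Bcl11b, and 1 at 100 µM, where it called 17.3% and 23.8% of all genes, so these counts are near or below the background. At 100 µM Neurod6 (0.19 ± 0.07, adjusted p = 0.0587, edgeR) and Emx1 (-0.23 ± 0.12, adjusted p = 0.169, edgeR) had the larger differences among the other factors. Neurod2, at 356 to 364 CPM with 100 µM, against 321 to 354 CPM with control peptide, did not overlap, 1 of 8, as 22.7% of all genes did not, and missed the test (0.09 ± 0.05, adjusted p = 0.222, edgeR). The factor that DESeq2 called there was Neurod6 (adjusted p = 0.0226), with Tbr1 at 0.0544. Markers of other cells moved beside these values at 100 µM, where 4 of 13 interneuron genes fell and 1 rose (994 to 1049 CPM, against 1007 to 1181 CPM with control peptide), 2 of 5 Cajal-Retzius genes fell (355 to 380 CPM, against 354 to 412 CPM), 2 of 7 tested oligodendrocyte lineage genes fell and 3 of 6 pan-neuronal genes rose (3239 to 3403 CPM, against 2885 to 3144 CPM). With libraries summed in pairs 1 interneuron, 1 Cajal-Retzius, 1 oligodendrocyte lineage and 0 pan-neuronal genes passed, and 3 pan-neuronal genes had an unadjusted p under 0.05. Their part was not tested.

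Interfering peptide at 100 µM with DEX was also set against control peptide without DEX, a contrast that combines both treatments. Here Neurod6, Neurod2 and Cux2 rose, 3 of 8, where 35.1% of all genes passed and 17.4% rose. The share of factors that passed is near that background. Neurod6 had 525, 557, 529 and 578 CPM at 100 µM, against 382, 445, 398 and 419 CPM without DEX. Every library at 100 µM was above every library without DEX, and the log2 change was 0.41 ± 0.07 (adjusted p = 6.04e-05, edgeR). It was 0.43 in libraries 1 and 3, 0.39 in libraries 2 and 4, and 0.42 with libraries summed in pairs (adjusted p = 0.00665, edgeR). Cux2 had 92.6, 91.7, 100.1 and 91.1 CPM at 100 µM, against 86.1, 73.0, 82.7 and 81.3 CPM without DEX. Its groups did not overlap, with a log2 change of 0.22 ± 0.06 (adjusted p = 0.00241, edgeR), 0.19 and 0.24 within the pairs, and an adjusted p of 0.0349 with libraries summed.

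Neurod2 had 358, 356, 357 and 364 CPM at 100 µM, against 287, 352, 296 and 336 CPM without DEX. The 100 µM libraries lay close together above a wider range without DEX, whose library 2 came nearest to them. The log2 change was 0.17 ± 0.05 (adjusted p = 0.00684, edgeR). It was 0.29 in libraries 1 and 3 and 0.07 in libraries 2 and 4, and it lost the test with libraries summed in pairs (adjusted p = 0.106) and without library 1 of the no-DEX group (adjusted p = 0.0577). Summed libraries gave 2 of 8 factors, against 22.8% of all genes. Cux1, at 220 to 227 CPM with 100 µM, against 204 to 218 CPM without DEX, did not overlap either and missed the test (0.08 ± 0.04, adjusted p = 0.127, edgeR). In all, 4 of 8 factors did not overlap, against 32.9% of all genes. Fezf2 and Emx1 differed in sign between the sets, which are matched across groups by number only. Fezf2 was at 0.39 in libraries 1 and 3 and at -0.29 in libraries 2 and 4, and Emx1 at 0.15 and -0.47.

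The promoters of Neurod6 and Neurod2 are printed because both paralogs were called in that contrast and bHLH factors bind the E-box, CANNTG. The Neurod2 call was lost with libraries summed in pairs. The letters are the 250 bases before each RefSeq gene start (GRCm38.p6), on the gene's minus strand, with E-boxes in capitals. The Neurod6 window lies at chr6:55681264-55681513 and the Neurod2 window at chr11:98329646-98329895.
Neurod6: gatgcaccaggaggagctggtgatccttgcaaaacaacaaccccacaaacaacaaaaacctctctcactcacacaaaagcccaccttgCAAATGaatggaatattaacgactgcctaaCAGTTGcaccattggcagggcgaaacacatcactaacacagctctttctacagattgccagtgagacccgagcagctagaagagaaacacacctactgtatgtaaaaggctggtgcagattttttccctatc
Neurod2: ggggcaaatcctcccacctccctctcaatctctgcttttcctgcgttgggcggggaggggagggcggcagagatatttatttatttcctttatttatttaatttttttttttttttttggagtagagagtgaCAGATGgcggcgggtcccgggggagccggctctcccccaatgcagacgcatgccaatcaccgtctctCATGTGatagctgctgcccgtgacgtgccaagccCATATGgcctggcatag
The Neurod6 window holds 2 E-boxes, 162 and 132 bases before the start, and the Neurod2 window 3, at 118, 51 and 17 bases. That at 118 reads CAGATG, the form that NeuroD factors prefer. Cux2, also called in that contrast, has a CAGATG too, 79 bases before a RefSeq start. E-boxes occur in 66.2% and CAGATG in 14.4% of 32851 RefSeq promoter windows of the same length, searched on both strands. Neither window holds AGAACA, the half-site of the glucocorticoid receptor, which is in 16.1% of windows. These are letter matches, and no binding was measured.

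Among the 22 other projection neuron factors 6 rose at 100 µM against no DEX and none fell, and the same number passed with libraries summed in pairs. Pou3f3 was one of them, with a log2 change of 0.34 ± 0.04. Among 12 glutamatergic and layer genes 4 rose and 1 fell (2 with libraries summed). Unc5d, a netrin receptor of upper-layer neurons, rose by 0.54 ± 0.06, Slc17a7, the vesicular glutamate transporter of mature cortical neurons, rose by 0.34 ± 0.10, and Slc17a6, the transporter typical of thalamus, fell by 0.24 on the log2 scale. Of 7 bHLH partners and Id inhibitors 2 rose, the E-proteins Tcf12 (0.19 ± 0.04) and Tcf3 (0.15 ± 0.06). Of 6 tested relatives of the 8 factors 1 passed, Fezf1, at 1.62 ± 1.21 CPM, against 4.31 ± 0.86 CPM without DEX (SD, n = 4 each), and with libraries summed in pairs 0 passed, also at an unadjusted p under 0.05. Markers of other cells moved too. The thalamic sum was 201 to 206 CPM at 100 µM, against 255 to 458 CPM without DEX, with 6 of 11 genes lower, and 3 of 5 Cajal-Retzius genes fell (355 to 380 CPM, against 382 to 480 CPM). Interneuron genes (5 of 13) and progenitor genes (4 of 8) rose, 4 of 7 tested oligodendrocyte lineage genes fell, and of 7 tested astrocyte genes 3 rose and 1 fell. These counts stand beside the 35.1% of all genes that passed. With libraries summed in pairs 2 thalamic, 2 Cajal-Retzius, 3 interneuron, 1 progenitor, 1 oligodendrocyte lineage and 1 astrocyte gene passed, where 22.8% of all genes did. Their part in these results was not tested.

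The effect of dose was taken as a slope on log10 dose, fitted to the 20 libraries that had the interfering peptide. Emx1 and Tbr1 fell with dose, 2 of 8, where 9.37% of all genes fell. Cux1, Cux2, Neurod2 and Neurod6 rose, 4 of 8, where 9.76% of all genes rose. In all, 6 of 8 passed, against 19.1% of all genes. The mean of Emx1 was 72.5 ± 7.89, 62.7 ± 3.55, 60.3 ± 6.28, 53.2 ± 2.91 and 48.9 ± 8.13 CPM at 1, 3, 10, 30 and 100 µM (SD, n = 4 each). Its libraries 2 and 4 had 72.4 and 83.6 CPM at 1 µM and 42.3 and 41.4 CPM at 100 µM, while libraries 1 and 3 had 68.3 and 65.8 CPM at 1 µM and 56.3 and 55.5 CPM at 100 µM. Both pairs fell, the first more than the second by value, and 1 µM and 100 µM did not overlap. The slope was -0.27 ± 0.04 per 10-fold dose (adjusted p = 7.26e-06, edgeR). It was -0.42 in libraries 2 and 4, -0.13 in libraries 1 and 3 (adjusted p = 0.0347), and -0.27 with libraries summed in pairs (adjusted p = 0.00241). No dose of Emx1 passed against the control peptide group, whose own libraries ran from 45.5 to 70.0 CPM.

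Tbr1 averaged 279 ± 11.1, 263 ± 14.6, 252 ± 5.12, 237 ± 8.24 and 240 ± 11.5 CPM over the same doses (SD, n = 4 each). Its 4 libraries at 1 µM, from 267 to 289 CPM, were above all 8 at 30 and 100 µM, from 227 to 254 CPM. The slope was -0.11 ± 0.02 (adjusted p = 1.71e-04, edgeR), -0.12 in libraries 1 and 3, -0.10 in libraries 2 and 4 (adjusted p = 0.0778), and -0.11 with libraries summed in pairs (adjusted p = 0.0201). Thus 2 of 8 factors passed when libraries were summed, against 8.53% of all genes.

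The slopes of the rising factors were shallower than that of Emx1. Neurod6 rose by 0.10 ± 0.04 per 10-fold dose, Cux2 by 0.08 ± 0.03, Neurod2 by 0.07 ± 0.02 and Cux1 by 0.06 ± 0.02, with adjusted p of 0.0192 to 0.0422 (edgeR). Summed in pairs, these 4 had adjusted p of 0.145 to 0.213. Without 1 library number in every group, Cux2 passed in 2 of 4 cases, Cux1 and Neurod6 in 1 each (without number 3) and Neurod2 in 0. The adjusted p was 0.0588 to 0.228 where the call was lost (edgeR). In these smaller fits 12.4% to 13.4% of all genes passed, against 19.1% with all 20 libraries. The slopes were then 0.0738 to 0.128 for Neurod6, 0.0631 to 0.101 for Cux2, 0.0638 to 0.0759 for Neurod2 and 0.055 to 0.0688 for Cux1. Cux1 averaged 206 ± 3.94 CPM at 1 µM and 224 ± 2.93 CPM at 100 µM (SD, n = 4 each). Neurod6 was not ordered by dose, with means of 467, 442, 486, 449 and 547 CPM, the highest dose standing apart. Bcl11b (-0.04 ± 0.03) and Fezf2 (-0.10 ± 0.04) missed the test. Fezf2 was highest at 3 µM (130 ± 3.51 CPM) and 10 µM (121 ± 10.0 CPM) and averaged 103 ± 12.7 CPM at 100 µM.

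**Figure D3:**
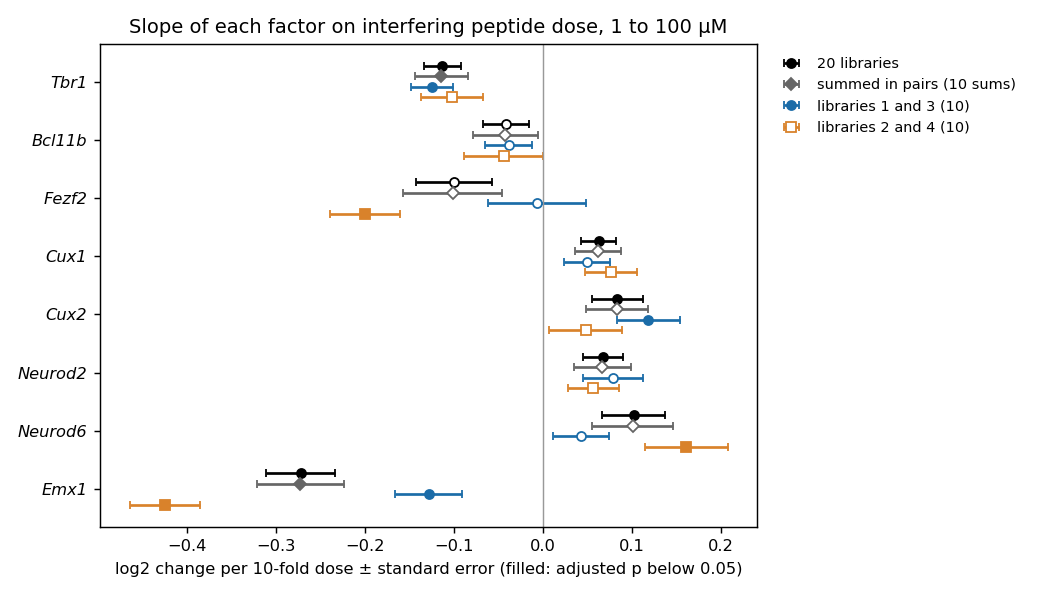
Slope of each transcription factor (rows) as log2 change per 10-fold dose with its standard error (horizontal axis), in all 20 interfering peptide libraries, in 10 sums of paired libraries and in each set of 10 libraries, filled where the adjusted p was below 0.05. The Emx1 slopes lie from -0.42 to -0.13, all left of 0.

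Of the 22 other projection neuron factors 6 rose with dose and 3 fell (3 rose and none fell with libraries summed in pairs). Of all genes 9.76% rose and 9.37% fell, 19.1% in all, and 8.53% passed with libraries summed in pairs. Among those that rose were Pou3f3 (slope 0.13 ± 0.02) and Foxp1, a forkhead factor of cortical and striatal neurons (0.12 ± 0.02). Of 5 targets and partners of Tbr1, 2 fell, the subplate and Cajal-Retzius gene Reln (-0.16 ± 0.04) and the deep-layer factor Sox5 (-0.13 ± 0.03). The rest of that list had slopes of 0.01 to 0.04 without passing, and with libraries summed in pairs 1 of the 5 passed. Sox5 is also counted among the 22 factors. Reln, at a mean of 358 CPM, is also counted among the Cajal-Retzius genes and makes up most of their sum. Of 6 tested relatives 1 passed, Neurod1, which rose (0.13 ± 0.04). With libraries summed in pairs 0 relatives passed, and 1 had an unadjusted p under 0.05. Of 7 bHLH partners and Id inhibitors 1 passed, Tcf4, which rose (0.13 ± 0.03). Both counts are near the share of all genes. In the same series 4 of 5 Cajal-Retzius genes fell (3 with libraries summed in pairs), led by Trp73 (-0.43 ± 0.06) and Lhx5 (-0.57 ± 0.09), and 8 of 11 thalamic genes fell (1 with libraries summed). The Cajal-Retzius sum was 394 to 492, 449 to 484, 403 to 438, 354 to 391 and 355 to 380 CPM from 1 to 100 µM, with no marker at 0. The thalamic sum was 256 to 553, 218 to 363, 155 to 282, 160 to 272 and 201 to 206 CPM. Their part in the slopes was not tested.

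The pairs of libraries differed within most groups. The gap is described as libraries 2 and 4 minus libraries 1 and 3, and was not tested. The pairs did not overlap in 43 of 56 combinations of factor and group, in 15 with libraries 2 and 4 above and in 28 with them below. Over all tested genes 44.1% of combinations did not overlap, and over genes of at least 40 CPM 51.4%. Tbr1 pairs were apart in 7 of 7 groups and Cux1 pairs in 2. The largest gaps were in Emx1 (median absolute log2 gap 0.21, largest 0.42) and Fezf2 (0.21 and 0.40), and the smallest in Cux1 (0.02 and 0.12). The direction changed between groups. Tbr1, Bcl11b, Neurod2 and Emx1 were each higher in libraries 2 and 4 in 3 of 7 groups, and no factor kept 1 direction in 7 of 7 groups, which 0.953% of all genes did.

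The thalamic sum followed the same pairs. In the control peptide group with DEX it averaged 314 CPM in libraries 2 and 4 and 203 CPM in libraries 1 and 3, and without DEX 258 and 455 CPM. At 1 µM it averaged 264 and 538 CPM. Tbr1, Bcl11b and Neurod2 were higher in the pair with the lower thalamic sum in 7 of 7 groups, Neurod6 and Fezf2 in 6, Emx1 in 5 and Cux1 and Cux2 in 3. This count was made after the values were seen, and only for these factors. No share of all genes is given beside it, so it does not show whether the factors differ from other genes. It includes 100 µM, where the sums of both pairs were nearly equal (203 and 204 CPM). The part of the thalamic sum in the comparisons was not tested.

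**Figure D4:**
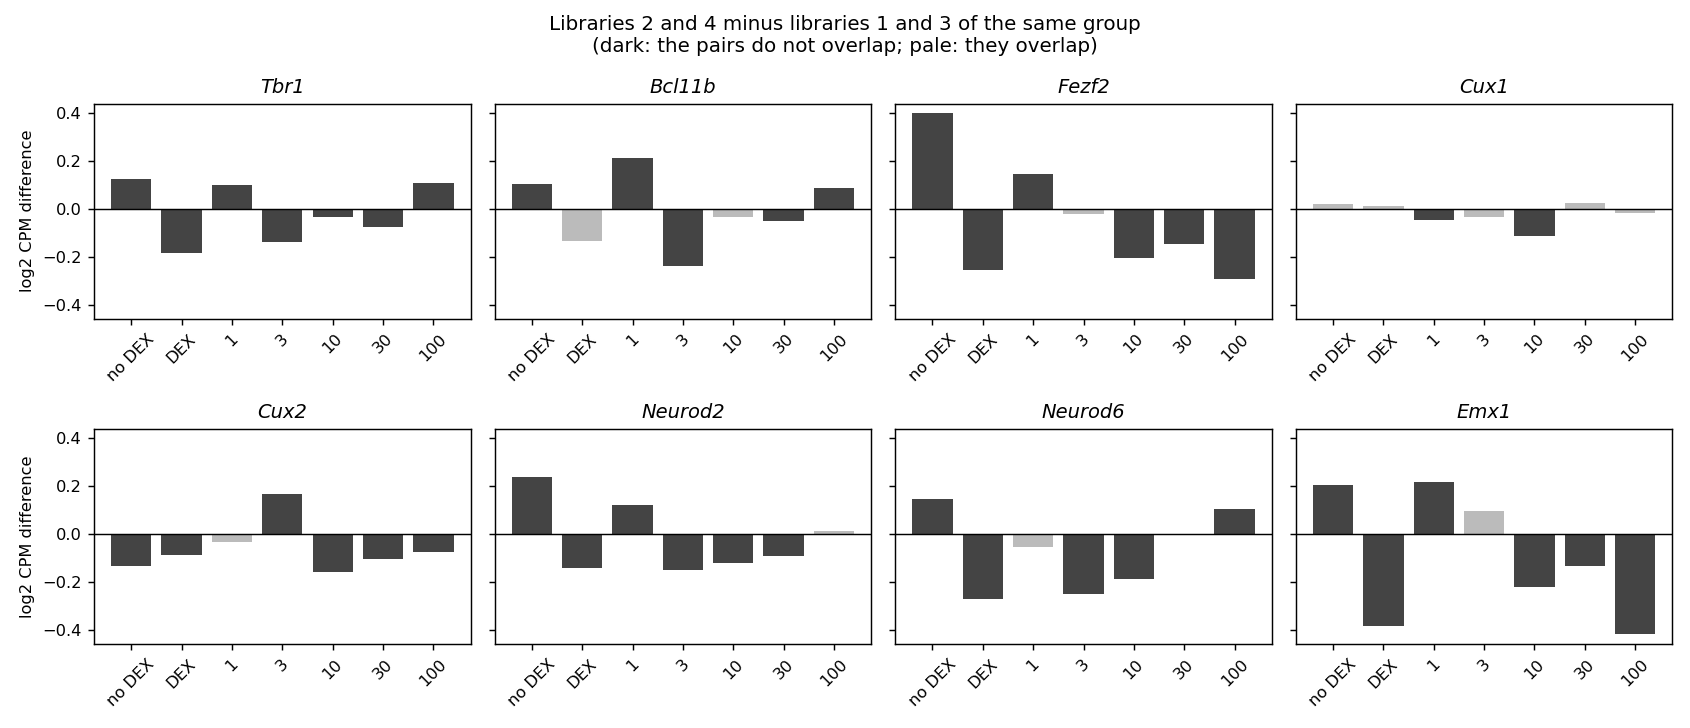
Mean log2 CPM of libraries 2 and 4 minus that of libraries 1 and 3 (vertical axis) for each transcription factor (panels) in the 7 neuron groups, no DEX and DEX being control peptide groups and 1 to 100 µM of interfering peptide with DEX. Dark bars mark pairs that did not overlap. In the control peptide groups the bars of Tbr1, Bcl11b, Fezf2, Neurod2, Neurod6 and Emx1 point down with DEX and up without. With interfering peptide and DEX, bars point either way.

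The genes whose group means ran most like each factor were taken as those with the highest Pearson r over 7 group means of log2 CPM, using the smaller of the r in libraries 1 and 3 and the r in libraries 2 and 4, among 11075 candidates. Group means share libraries and scaling, and with 7 points high values are easily reached. For Tbr1 they were Sipa1l1 (0.86), a synaptic Rap regulator, and Kat6b (0.85), a histone acetyltransferase. For Emx1 they were Nxph4 (0.91), a neurexophilin, and Kat6b (0.90). Fezf2 ran with Rarg (0.93), a retinoic acid receptor, and Acvr1 (0.88), a receptor for bone morphogenetic proteins. Cux2 ran with Sod1 (0.94), a superoxide dismutase, and Dscaml1 (0.91), an adhesion molecule, and Cux1 with Tax1bp3 (0.89) and Gm10131 (0.88). Neurod2 ran with Mturn (0.93) and Atf7 (0.92), a leucine zipper factor. Neurod6 ran with Ccnt1 (0.90) and Aff4 (0.89), both parts of the machinery of transcription elongation. Bcl11b ran with Plppr1 (0.83) and Zfp952 (0.83). Among the 8 factors the closest were Tbr1 with Bcl11b (0.80), Tbr1 with Emx1 (0.72) and the paralogs Neurod2 with Neurod6 (0.72). Cux1 and Cux2 reached 0.46. Tbr1 and Cux1 had an r of -0.19 in libraries 1 and 3 and of -0.90 in libraries 2 and 4.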

How the data were processed

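RNA-seq read counts were analysed for 28 neuron libraries in 7 groups of 4. The 16 L929 libraries were used for levels. Sample titles gave the groups and library numbers. RNA was, per the labels' protocols, selected with poly-T beads and copied with random hexamers. The values deposited by the authors are raw whole-number counts per gene. Alignment used HISAT2 2.2.1 and mm10, per the submitters' processing notes. Reads were counted with a tool, annotation and strand setting not given in the sources used here. Gene lengths are those of the deposited table, and 99.93% of gene identifiers were found in GENCODE M21.

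Low counts were removed with filterByExpr, libraries were scaled by TMM, and all 7 groups were fitted together with edgeR 4.0.16 (R 4.3.3, robust quasi-likelihood, group term only). The slope on log10 dose used the 20 interfering peptide libraries. P-values were adjusted by Benjamini-Hochberg over 17837 genes and called below 0.05, with no fold minimum. Steps were tested on simulated counts. Depth was 13685236 to 17083701 counts per neuron library, and without molecular identifiers counting error is only part of the error.

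Results were recomputed with DESeq2 1.42.0, with RLE size factors, without the filter, with only the compared groups, a replicate block, dose as a rank, each library left out, each pair of libraries alone, and libraries summed in pairs. For the test over 7 groups all but the block were added after seeing the data. The 8 factors, the gene lists and the split into pairs were chosen with earlier results of these data known. Named genes are the 8 factors, up to 3 genes with the smallest p among those called in each list described, and the 2 protein-coding genes of at least 5 CPM most like each factor. Genes named as examples of high or low levels in marker lists fall outside that rule. Some genes that this rule names are not reported here.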

Additional observations from a re-analysis of the deposited data

Results flagged for a closer look

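A sample far from the other 3 of its group was found by Dixon's ratio in 3 of 56 combinations of factor and group. Chance flags about 1 in 20 such groups. Bcl11b in library 2 of the control peptide with DEX had 376 CPM, against 454 to 465 CPM in the other 3. Tbr1 in library 2 at 10 µM had 244 CPM, against 253 to 255 CPM. Neurod6 in library 3 at 1 µM had 492 CPM, against 455 to 462 CPM. Of these the Bcl11b library decided a call, as given with the DEX comparison.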

How the results depend on the processing

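Counts of the 8 factors called moved with the use of the pairs of libraries, and the share of all genes called, given in brackets, moved too. For DEX over no DEX the count was 4 with no low-count filter (5.69%), 7 in libraries 1 and 3 (14.7%), and 0 with libraries summed in pairs (1.72%). For 1 µM it was 4 in either pair alone (3.89% in libraries 1 and 3, 9.88% in 2 and 4) and 0 summed (0.454%). For 3 µM it was 2 in either pair alone (6.84% and 15.9%), 1 with only the compared groups (2.12%) and 1 with DESeq2 (6.48%). For 10 µM it was 1 in either pair alone (3.83% and 9.54%). For 30 µM it was 2 with no filter (7.47%), with only the compared groups (15.8%) and with DESeq2 (17.3%), 4 in libraries 1 and 3 (15.4%), and 0 in libraries 2 and 4 (11.3%) and summed (4.00%). For 100 µM against control peptide it was 0 with RLE size factors (23.6%), with only the compared groups (20.9%) and summed (10.2%), 2 with no filter (10.8%) and 3 in either pair alone (15.6% and 24.0%). The test over 7 groups gave 1 when summed (16.8%). The slope gave 2 with no filter (8.69%) and when summed (8.53%), and 3 in either pair alone (8.09% and 8.70%). Shares with no filter are of 36191 genes. Directions turned in libraries 2 and 4 for Fezf2 with DEX (-0.21), for Fezf2 at 100 µM over no DEX (-0.29) and for Tbr1 at 100 µM over control peptide (0.0175). Of the differences that were called in neither fit, 15 changed sign in libraries 2 and 4, 9 in libraries 1 and 3, and 0 with libraries summed. The causes were not tested. Leaving out 1 library at a time gave 1 to 4 calls for DEX (6.39% to 10.1%) and 0 to 1 for 1 µM (1.27% to 2.41%). It gave 0 for 3 µM (2.44% to 6.27%) and for 10 µM (2.84% to 5.66%). The range was 0 to 2 for 30 µM (10.8% to 14.9%) and for 100 µM (18.6% to 22.7%), and 2 to 3 for 100 µM over no DEX (29.8% to 32.5%). Leaving out 1 library number gave 4 to 6 calls in the test over 7 groups (31.0% to 37.0%) and 3 to 4 in the slope (12.4% to 13.4%). There the slope of Emx1 ran from -0.33 to -0.20 and that of Tbr1 from -0.12 to -0.11. CPM on total counts moved 4 of 56 group means by more than their SD.

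Same-numbered libraries of different groups did not deviate together (0 of 84 correlations above 0.1), so the numbers do not pair the samples. With the replicate block the counts were 2 for DEX (10.3% of all genes), 1 for 1 µM (2.10%), 0 for 3 µM (4.78%) and 10 µM (4.68%), 1 for 30 µM (15.1%), 1 for 100 µM (22.5%), 3 for 100 µM over no DEX (34.5%), 7 over the 7 groups (43.5%) and 6 for the slope (17.7%). At 100 µM the called factor was then Neurod6 (0.19, adjusted p = 0.0419, edgeR) and Tbr1 had an adjusted p of 0.0534.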

Other observations

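Of 12 striatal markers 4 rose with dose, among them Ebf1 (slope 0.18 ± 0.04 per 10-fold dose), Ikzf1 (0.29 ± 0.07) and Rarb (0.30 ± 0.08). Ebf1 and Rarb act in the developing striatum, where Bcl11b is also used. The striatal list summed to 157 to 168 CPM at 1 µM and to 172 to 194 CPM at 100 µM. Of 4 tested hippocampal genes Zbtb20 rose (0.18 ± 0.03) and Dsp fell (-0.26 ± 0.06). In the vascular and meningeal list (8 genes) 1 of 7 tested genes passed, Pecam1, which rose (0.13 ± 0.04). In the oligodendrocyte lineage list 1 of 7 passed, Olig2, which fell (-0.14 ± 0.05). Of all genes 19.1% passed. With libraries summed in pairs 3 striatal, 2 hippocampal, 0 vascular and meningeal and 0 oligodendrocyte lineage genes passed, against 8.53% of all genes. These lists were not related to the 8 factors by any test.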
